A study of Bos indicus with 72 samples.

Results

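A set of 55 genes differed most in level between the pituitary glands of individual heifers, and the results below describe which of them moved together, in which animals, and whether they followed puberty. The genes were selected on their measured values. A gene was taken when its mean over 12 pituitary libraries was at least 20 CPM (the gene's share of the gene reads of a library, in counts per mega-read) and the standard deviation (SD) of its log2(CPM + 1) was at least 0.9. Of 24616 annotated genes, 7192 reached that mean and 60 of these reached that SD. A further 5 were left out because their levels followed the hypothalamus of the same animals with a Pearson r above 0.8, and the most abundant pituitary gene, ENSBTAG00000015274, was left out by name. With an SD of 0.71 it would not have entered in any case. The remaining 55 genes were 0.765% of the 7192.

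The study sequenced RNA from 6 tissues of 12 Brahman heifers (Bos indicus) before or after puberty. Each group of pituitary libraries came from 6 animals, pre-puberty in 2046, 2048, 2049, 2054, 2055 and 2060 and post-puberty in 2047, 2056, 2057, 2059, 2061 and 2064, with 1 library per animal and no labelled treatment. The hypothalamus libraries came from the same animals with the same status. Animals 2054 and 2059 carry the opposite status in the labels of liver and uterus, so the status of these 2 animals is uncertain, and results are also given without them where that moves a value. The labels used here give no age and no region of the gland. Each library mixes all cells of its tissue sample, so that fewer cells of a type and less RNA per cell cannot be told apart.

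The anterior pituitary is built from several endocrine cell types, each making its own hormones, and it lies beside a posterior lobe of nerve endings and glia. The hypothalamus drives it through releasing hormones, and around puberty pulses of gonadotropin-releasing hormone lead the gonadotropes to secrete the hormones that act on the ovary. Hormone messages are among the most abundant RNAs of the gland. The files give genes by Ensembl identifiers that matched no entry of the gene table at hand, so no gene is named or given a role here, the tissue labels could not be checked against marker genes, and no sequences are shown.

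Gene reads ran from 4.43 to 9.76 mega-reads (M) per pituitary library with a median of 6.40 M, and between 31.6% and 37.7% of all reads fell in genes. ENSBTAG00000015274 alone held between 5.68% of gene reads in animal 2056 and 35.2% in animal 2057. CPM of the other genes move against that share. The median gene at 20 CPM or more lay 0.29 (log2) above its own mean in 2056 and 0.30 below it in 2057. How much of this shift the share makes up was not tested. Effective library sizes by the trimmed mean of M-values (TMM) remove this shift. Under them the median r between 2 of the 7192 genes over the 12 libraries was 0.00475, against 0.391 on CPM. The selected genes were less affected, with a median r between pairs of 0.0310 on CPM and 0.00386 under TMM, and 48 of the 55 were also selected under TMM.

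The selected genes were moderately abundant, with a median of the gene means of 38.5 CPM against 47.8 CPM over the 7192 genes. In 34 genes the mean was under 50 CPM and in 13 it was over 100 CPM. The median SD was 1.02 on the log2 scale, where the 7192 genes had a median of 0.275, and 9 genes had an SD above 1.5. At the edge of the rule, the lowest SD among the selected genes was 0.902 and the highest below it 0.898. The lowest selected mean was 20.05 CPM and the highest below it 19.8 CPM, and the highest r to the hypothalamus that was kept was 0.788, with the lowest left out at 0.817. Counting error was small beside these differences: the median of each gene's lowest library was 46 reads, and only 1 gene had a library with 3 reads or fewer. For the other 54 genes the highest library exceeded the lowest by a median of 12.4-fold, from 5.93-fold to 226-fold.

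A few animals set many of the extremes. Animals 2047 and 2055 each held the highest value of 11 genes and animal 2060 that of 10, whereas 2046 held the lowest value of 15. Of the 12 libraries, that of 2047 had the most gene reads, 9.76 M, and that of 2055 the fewest, 4.43 M. Reads in no gene made up 60.6% in 2047 and 60.3% in 2060, against a median of 56.4%. That share was 60.2% in 2056, which held the highest value of 4 genes, and 56.2% in 2046. Whether depth or this share bears on the levels was not tested. Leaving out 1 animal took 29 of the 55 genes below an SD of 0.9. The animal that mattered was 2055 for 9 genes, 2047 and 2060 for 8 each and 2046 for 7, and some genes depended on more than 1 animal. The other 26 genes kept an SD of 0.9 or more without any single animal.

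**Figure D1:**
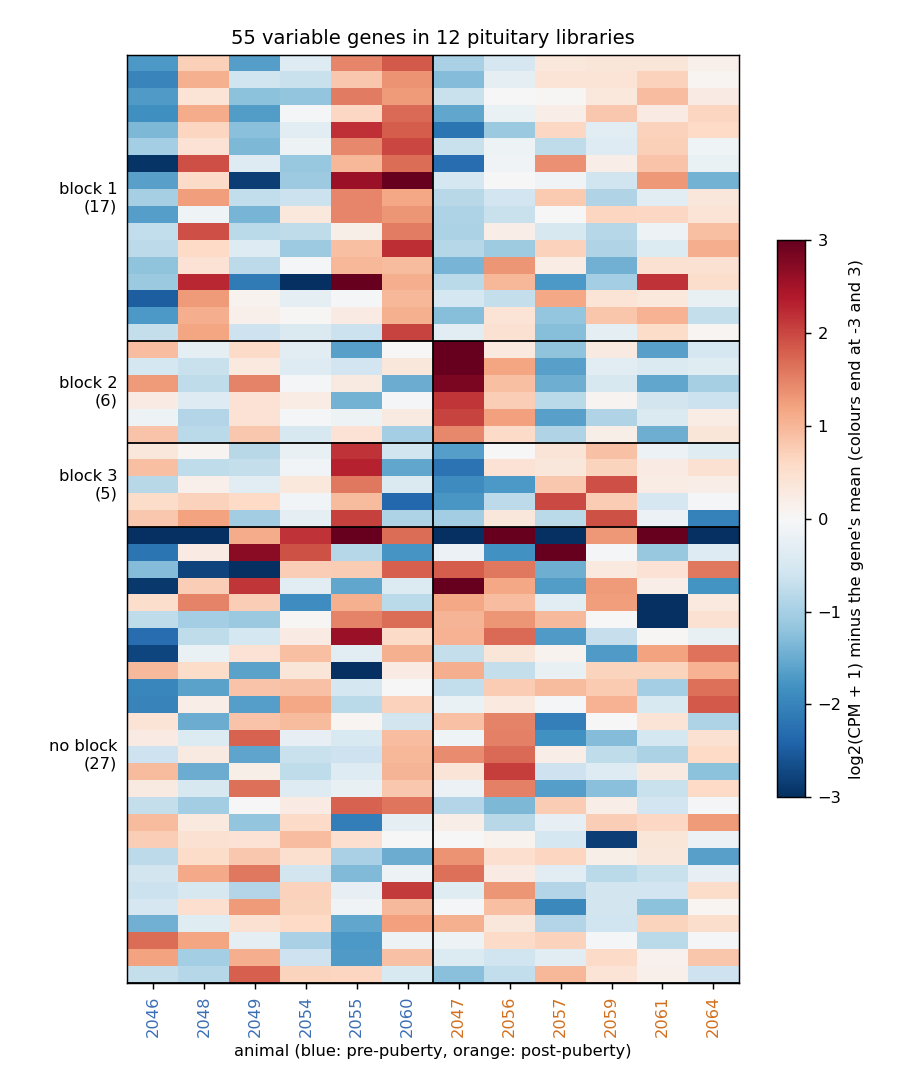
Colour shows log2(CPM + 1) of each of the 55 genes (rows) minus that gene's mean over the 12 pituitary libraries (columns, by animal), with pre-puberty animals left and post-puberty animals right of the vertical line. Rows are grouped into the 3 covarying blocks of 17, 6 and 5 genes and the 27 genes in none, and the extremes fall in single columns on either side of the line.

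Genes were grouped by how alike their levels ran over the 12 libraries, by average linkage on 1 minus Pearson r, with the tree divided at 0.5 and at least 5 genes to a block. This gave 3 blocks with 28 of the 55 genes. Block 1 held 17 genes, block 2 held 6 and block 3 held 5. The correlations within and between blocks describe 12 shared libraries and carry no test.

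Block 1 was the broadest covarying group, with a median r of 0.66 between its genes and pairs from 0.20 to 0.97. The block level, the mean log2 deviation of its genes, was highest in the pre-pubertal animals 2060 at 1.63, 2055 at 1.14 and 2048 at 0.99. It was lowest in the pre-pubertal animals 2046 at -1.50 and 2049 at -1.03 and in the post-pubertal animal 2047 at -1.06. The highest and the lowest library of the block were therefore both pre-pubertal. Animal 2054 lay at -0.67, and the other 5 post-pubertal animals lay closer to 0, from -0.16 in 2059 to 0.59 in 2061. Animal 2060 was the highest library of 7 of the 17 genes and animal 2046 the lowest of 9.

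The gene closest on average to the rest of block 1 was ENSBTAG00000009996. Its levels before puberty were 31.0 CPM in 2046, 32.7 in 2049, 79.1 in 2054, 173 in 2048, 288 in 2055 and 376 in 2060. After puberty they were 52.6 CPM in 2047, 73.4 in 2056, 115 in 2064, 131 in 2057, 135 in 2061 and 135 in 2059. The pre-pubertal animals split into 3 low and 3 high values, and all post-pubertal values lay within the pre-pubertal range. The means were 163 ± 143 CPM before and 107 ± 35.4 CPM after puberty (SD, n = 6 each), a log2 change of -0.48 ± 0.57 (SE, edgeR's quasi-likelihood test, unadjusted p of 0.413, adjusted p = 0.9999, Benjamini-Hochberg over all genes tested). The genes most like it over the 12 libraries were ENSBTAG00000008077 with r = 0.93, ENSBTAG00000012082 with r = 0.93 and ENSBTAG00000011266 with r = 0.92.

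ENSBTAG00000025952, also of block 1, had the second highest SD of the set, 2.01. Before puberty it lay at 0.703 CPM in 2054, 3.1 in 2049, 7.28 in 2046, 37.1 in 2060, 85.4 in 2048 and 159 in 2055. After puberty it lay at 4.41 CPM in 2057, 7.80 in 2059, 9.22 in 2047, 25.1 in 2064, 35.0 in 2056 and 79.8 in 2061. It spanned the full range in the pre-pubertal animals, and the post-pubertal animals fell inside that range. The gene was all but absent from the hypothalamus, where the highest of 12 libraries was 0.121 CPM.

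Block 2 was led by animal 2047. Its 6 genes had a median r of 0.74, and all 6 were highest in 2047, a post-pubertal animal, where the block level was 2.51. Without 2047 the SD fell below 0.9, to 0.86 in ENSBTAG00000001864, 0.63 in ENSBTAG00000006167, 0.71 in ENSBTAG00000008545 and 0.77 in ENSBTAG00000015711. Those genes entered the set through that library, so their peak in it follows largely from the selection. The next levels were 0.82 in 2056, 0.68 in 2049 and 0.44 in 2046, and the lowest were -1.02 in 2061 and -1.28 in 2057, both post-pubertal. Without animal 2047 the median r fell to 0.53, and no more than 2 of the 6 genes were still placed together. With 2047 and 2055 both left out, a setting chosen after seeing the data, all 6 were placed together again, so the grouping depended on which animals were kept.

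The central gene of block 2, ENSBTAG00000001864, shows the same pattern. After puberty it lay at 648 CPM in 2047 and at 70.4 in 2056, 69.4 in 2059, 39.9 in 2064, 24.1 in 2057 and 17.8 in 2061. Before puberty it lay at 110 CPM in 2046, 85.5 in 2049, 57.1 in 2060, 47.5 in 2048, 45.2 in 2054 and 17.8 in 2055. Apart from 2047, the post-pubertal values lay within the pre-pubertal range or within 0.1 CPM of it. Its means were 60.6 ± 32.7 CPM before and 145 ± 247 CPM after puberty (SD, n = 6 each; log2 change 1.07 ± 0.83 SE, adjusted p = 0.9999 by edgeR). Its closest gene was ENSBTAG00000006167 with r = 0.93 over 12 libraries.

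Block 3 ran from animal 2055, pre-pubertal, at a level of 1.81 to animal 2047, post-pubertal, at -1.71. The other levels furthest from 0 were 1.23 in 2059 and -1.18 in 2060. Its 5 genes had a median r of 0.62, from 0.38 to 0.89. No block with any of these genes together was found when 2047, 2055 or 2059 was left out, so this group is the least settled of the 3.

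Its central gene, ENSBTAG00000030805, lay before puberty at 275 CPM in 2055, 76.5 in 2046, 64.3 in 2048, 51.3 in 2054, 39.4 in 2060 and 33.8 in 2049. After puberty it lay at 112 CPM in 2059, 79.4 in 2057, 60.5 in 2056, 53.9 in 2061, 47.0 in 2064 and 18.5 in 2047. A single high library and a single low one bounded overlapping groups. The log2 change was -0.46 ± 0.55 (SE; unadjusted p of 0.423, adjusted p = 0.9999 by edgeR).

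Blocks 1 and 2 ran partly against each other, with a median r of -0.47 between their genes, and blocks 2 and 3 did too, with -0.51. Blocks 1 and 3 were nearly unrelated at 0.14. Animal 2047 entered each of these, as the highest library of block 2, the lowest of block 3 and the second lowest of block 1. Under TMM the grouping put the same 17, 6 and 5 genes together, and the block levels followed those on CPM with r from 0.98 to 0.99.

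**Figure D2:**
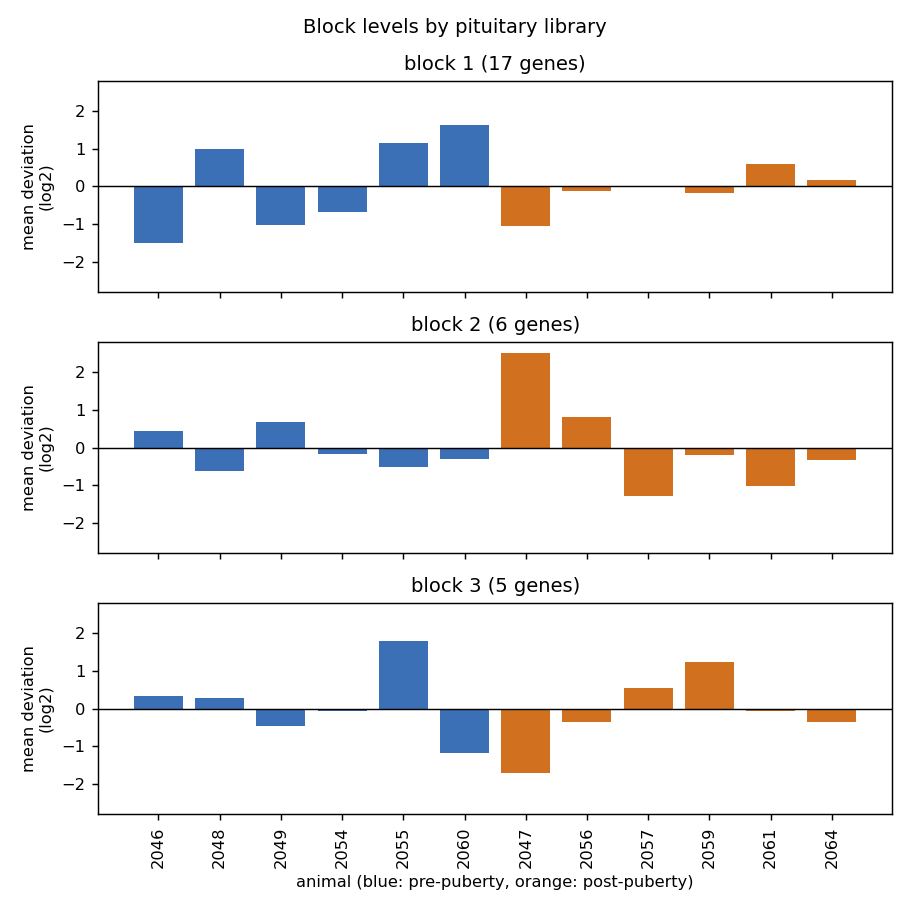
Bars give the level of each block, the mean over its genes of log2(CPM + 1) minus the gene's mean, in each of 12 pituitary libraries (blue, pre-puberty; orange, post-puberty). Block 1 runs from -1.50 to 1.63 within the pre-pubertal animals alone, block 2 peaks at 2.51 in animal 2047, and block 3 runs from -1.71 in 2047 to 1.81 in 2055.

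Outside the blocks, 23 genes fell into 10 groups of 2 to 4 genes and 4 stood alone. The tightest pair held the most abundant gene of the set, ENSBTAG00000007897, which was singled out after its values were seen. It ranged from 5488 CPM in 2055, 10126 in 2049, 18797 in 2060, 28524 in 2048 and 34571 in 2054 to 44721 in 2046 before puberty. After puberty it ranged from 12999 CPM in 2056, 19366 in 2057, 26392 in 2047, 35423 in 2061 and 38842 in 2059 to 55773 in 2064. The groups overlapped, with means of 23704 ± 14989 and 31466 ± 15324 CPM (SD, n = 6 each) and a log2 change of 0.39 ± 0.49 (SE; adjusted p = 0.9999 by edgeR).

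Its partner, ENSBTAG00000022829, followed it with r = 0.94 over the 12 libraries at a far lower level, from 40.2 CPM in 2055 to 727 CPM in 2047. In both genes 2055, 2049 and 2056 were the 3 lowest libraries. In the hypothalamus they averaged 20.9 and 0.623 CPM. Whether reads of near-identical genes were shared between identifiers was not tested.

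ENSBTAG00000020564 had the highest SD of the set, 3.27, and behaved as present or absent. Before puberty it had 0.146 CPM in 2046 and 0 in 2048, but 27.0 CPM in 2049, 40.5 in 2060, 57.4 in 2054 and 235 in 2055. After puberty it had 0.102 CPM in 2047, 0.339 in 2057 and 0 in 2064, but 31.2 CPM in 2059, 119 in 2061 and 219 in 2056. The 5 low libraries held 0 to 2 reads and the 7 others 152 to 1441 reads. A count of 0 allows up to 3 reads in a library, so the step between the classes is far outside counting error. The low class held 2 pre-pubertal and 3 post-pubertal animals.

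In the hypothalamus this gene had at most 2 reads in any library. Reads were seen there in 6 of the 7 animals with the gene in the pituitary and in 0 of the other 5. The ovaries did not show that split: on the left side, reads were found in 2046, 2047, 2048 and 2064, which had at most 2 reads of it in the pituitary, as well as in 2054, 2055 and 2059, with at most 3 reads each. At such counts no order of animals can be read.

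**Figure D3:**
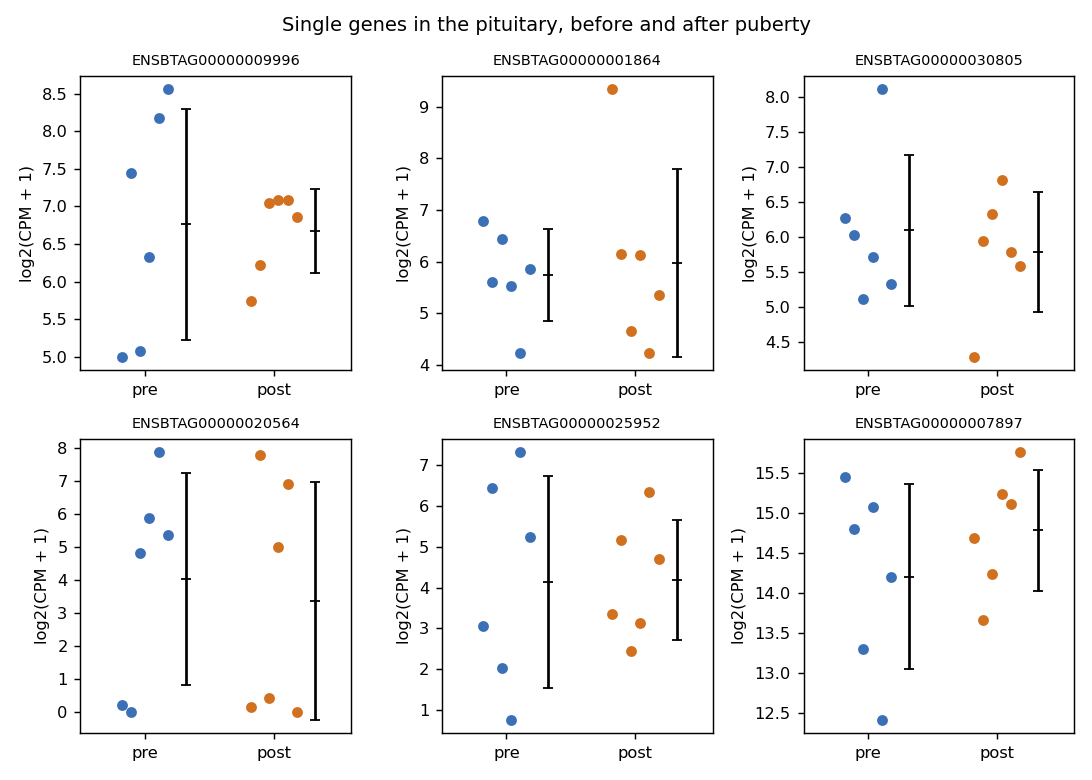
Points give log2(CPM + 1) of 6 genes in each pituitary library before (blue) and after (orange) puberty, and black bars give the mean ± SD of 6 libraries. ENSBTAG00000020564 splits into libraries near 0 and libraries at 27.0 CPM or more in both groups, ENSBTAG00000001864 has 1 library at 648 CPM, and no gene separates the groups.

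The 3 genes described below each had a single animal far below the others of its group and were singled out after their values were seen. They were not the only such genes. In block 3, ENSBTAG00000020923 had such a low value in the post-pubertal animal 2047 and ENSBTAG00000006761 in the pre-pubertal animal 2060. ENSBTAG00000002069 had 4.17 CPM in animal 2061, where the other 11 pituitary libraries ran from 30.8 CPM in 2054 to 320 CPM in 2048. In the hypothalamus 2061 was again lowest at 1.18 CPM, with the others between 17.9 and 77.9 CPM. In both ovaries its library had 0 reads, which allows up to 3, where the others had 1 to 7 reads on the left and 0 to 19 on the right. The low level of this animal thus appeared in pituitary and hypothalamus. In the liver the library numbered 2061 was the highest of 12 at 512 RPKM (reads scaled to library size and gene length), and those numbered 2057 and 2048 were lowest at 28.9 and 47.8 RPKM.

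ENSBTAG00000000601 had 3.89 CPM in the same animal, with the others between 38.9 CPM in 2049 and 273 CPM in 2060. Its hypothalamus level in 2061, 7.19 CPM, lay within the range of the rest, 6.79 to 20.8 CPM. The pituitary low of this gene therefore had no counterpart of similar size in the hypothalamus. The 2 genes had r = 0.60 over the 12 libraries but a Spearman rho of 0.049, so their likeness rests on animal 2061.

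ENSBTAG00000043564 was lowest in animal 2059 at 26.1 CPM. The other post-pubertal animals had 132 CPM in 2057, 167 in 2064, 189 in 2047, 205 in 2056 and 244 in 2061. The pre-pubertal animals had 191 CPM in 2060, 257 in 2049, 260 in 2048, 268 in 2055, 320 in 2046 and 361 in 2054. The same animal had 0 reads of this gene in either ovary, which allows up to 3, where the others had 8 to 28 on the left and 8 to 41 on the right. In the hypothalamus 2059 was low at 121 CPM, but so was 2054 at 111 CPM, with the others from 1045 to 2151 CPM. Animal 2054 was thus low in the hypothalamus and highest in the pituitary. In the liver the library numbered 2059 had 4909 RPKM, within the 3687 to 10494 RPKM of the others. Animals 2054 and 2059 are the 2 whose status labels conflict between tissues.

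None of the 55 genes passed the test for a difference between pre- and post-pubertal pituitaries at an adjusted p under 0.05 (edgeR's quasi-likelihood test, Benjamini-Hochberg over 13335 genes). Nor did any other gene, so the background was 0%. DESeq2 and limma voom also called 0 of the 55. At an unadjusted p under 0.05, 2 of the 55 genes passed (3.64%) against 1.52% of all genes tested. In no gene of the set did the CPM of the groups fail to overlap, and 0.015% of all genes showed such a gap. Missing the threshold does not show equal levels, since the standard errors of the log2 change were 0.57, 0.83 and 0.55 for the central genes of blocks 1, 2 and 3.

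Both of these genes were lower after puberty. ENSBTAG00000014906, the lowest p of the set, had 18.2 CPM in 2046, 24.2 in 2055, 37.1 in 2048, 41.9 in 2054, 52.4 in 2060 and 64.3 in 2049 before puberty. After puberty it had 6.11 CPM in 2057, 10.6 in 2061, 17.5 in 2059, 24.8 in 2047, 27.3 in 2064 and 49.3 in 2056. The groups overlapped broadly, with log2 change -0.94 ± 0.39 (SE; unadjusted p of 0.031, adjusted p = 0.9999 by edgeR), and leaving out 1 animal gave -1.23 to -0.67, with an unadjusted p from 0.0073 to 0.088. Without the 2 animals of uncertain status the change was -0.91, with an unadjusted p of 0.073. It ran with ENSBTAG00000010889 and ENSBTAG00000039236 at r = 0.82 and r = 0.79 over the 12 libraries. ENSBTAG00000043564, described above with its low value in 2059, had a log2 change of -0.83 ± 0.37 (SE; unadjusted p of 0.042, adjusted p = 0.9999). Without animals 2054 and 2059 its change was -0.55, with an unadjusted p of 0.011. Leaving out 1 animal gave -1.02 to -0.62, the smallest change without 2059, with an unadjusted p from 0.0043 to 0.080.

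The highest change upward with the lowest p was 1.26 ± 0.68 (SE) for ENSBTAG00000008545 of block 2, with an unadjusted p of 0.088 and adjusted p = 0.9999 by edgeR. After puberty it had 268 CPM in 2047 and then 69.3 in 2056, 23.4 in 2059, 22.9 in 2064, 22.0 in 2061 and 8.99 in 2057. Before puberty it had 18.4 CPM in 2048, 19.7 in 2055, 20.5 in 2046, 22.8 in 2054, 37.1 in 2049 and 38.2 in 2060. Without animal 2047 the log2 change was 0.05, so 1 library carried it.

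Within blocks 1 and 2 the fitted changes shared a sign, which genes that move together in the same libraries will tend to do. All 17 genes of block 1 had a negative change after puberty, with a median of -0.48 and a lowest unadjusted p of 0.105. All 6 of block 2 had a positive one, with a median of 0.50 and a lowest p of 0.088. Block 3 had 2 positive and 3 negative changes. The block levels differed little between the groups: 0.09 ± 1.32 before and -0.09 ± 0.55 after puberty in block 1, -0.09 ± 0.53 and 0.09 ± 1.39 in block 2, and 0.12 ± 1.0 and -0.12 ± 0.99 in block 3 (SD, n = 6 each). Each difference, -0.19, 0.17 and -0.24, was smaller than the spread within either group.

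Over the set, 22 genes had a positive and 33 a negative change after puberty, with a median of -0.20 on the log2 scale. The median size without sign was 0.42, against 0.063 over the 7192 genes. Selection on a high SD enlarges such sizes whatever the grouping, so nothing about puberty is read from it.

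The file names divide the 12 libraries into 2 sets of 6, numbered 53 and 54, each with 3 pre-pubertal and 3 post-pubertal animals. What the numbers stand for is not labelled. None of the 55 genes differed between the sets at an adjusted p under 0.05 by edgeR, with a background of 0%, and DESeq2 also called 0. At an unadjusted p under 0.05 none of the 55 passed by edgeR and 1 by DESeq2, against 4.42% of all genes by edgeR. Within set 53 the post-minus-pre difference was -0.34 for block 1, -0.10 for block 2 and -0.59 for block 3. Within set 54 it was -0.03, 0.45 and 0.12 in the same order. Blocks 2 and 3 thus changed sign between the sets, and block 1 kept a small negative difference.

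Most of the variable genes were more abundant in the pituitary than in the hypothalamus of the same animals. With the animal as a block, 42 of the 55 genes were higher and 9 lower in the pituitary at an adjusted p under 0.05 (edgeR's quasi-likelihood test, 12 animals). Over all 15173 genes tested, 39.8% were higher and 39.9% lower. Among the 7192 genes at 20 CPM or more in the pituitary, as the rule requires, 47.6% were higher and 35.2% lower. The set's share of higher genes, 76.4%, was above both. The median log2 difference was 2.71 for the set and 0.14 for the 7192. Without the animal as a block, 49 genes passed of the 53 tested.

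The blocks differed in this respect. In block 1, 15 genes were higher in the pituitary and 2 lower, and 4 of its genes averaged under 1 CPM in the hypothalamus. In block 2, 5 were higher and 1 lower. In block 3, 2 were higher, 2 lower and 1 was not called. Block 3 was the only one of the 3 with a negative median log2 difference, -0.55, and whether the blocks differ was not tested.

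At the extremes, 13 genes averaged under 1 CPM in the hypothalamus, and 2 of these had no read there. ENSBTAG00000007897 averaged 27585 CPM in the pituitary and 20.9 CPM in the hypothalamus, a log2 difference of 10.14 ± 0.42 (SE; adjusted p = 3.81e-12 by edgeR). Larger differences toward the pituitary were fitted for ENSBTAG00000010889 at 11.87 and ENSBTAG00000025952 at 10.33. The 2 genes with no read in the hypothalamus were fitted at 12.36 (ENSBTAG00000006761) and 11.25 (ENSBTAG00000039236). With no reads on the hypothalamus side, the size of these 2 differences is not well fixed. Among the genes lower in the pituitary the largest difference, singled out after its values were seen, was that of ENSBTAG00000022890. It lay between 5.20 CPM in 2055 and 45.7 CPM in 2046 in the pituitary and between 10245 CPM in 2049 and 30530 CPM in 2056 in the hypothalamus. The log2 difference was -10.22 ± 0.43 (SE; adjusted p = 5.27e-12 by edgeR). Its pituitary and hypothalamus levels were hardly related over the 12 animals, with r = -0.20. Whether tissue from outside the gland lay in some pituitary samples could not be looked at without named markers.

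**Figure D4:**
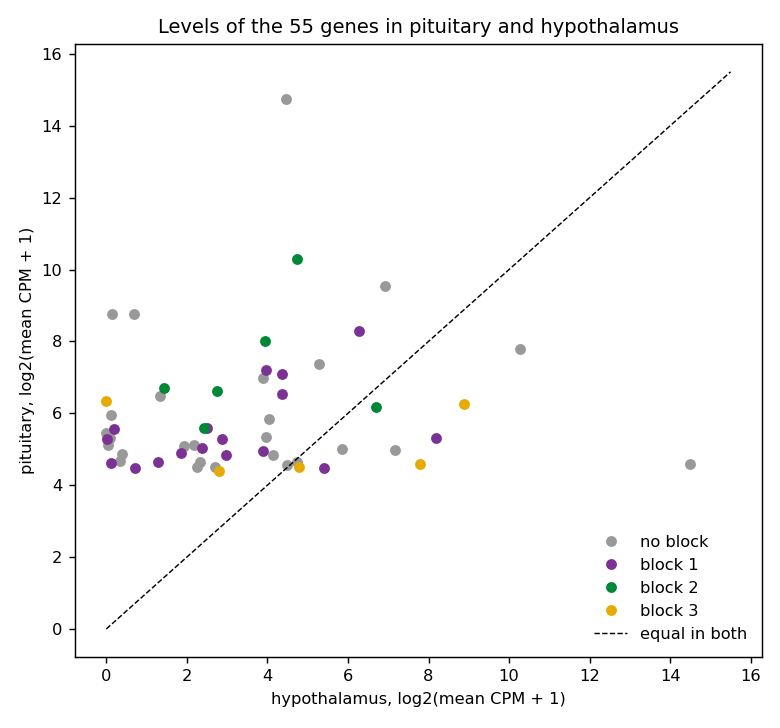
Each point is 1 of the 55 genes, with the log2 of its mean CPM + 1 over 12 hypothalamus libraries across and over 12 pituitary libraries up, coloured by block; the dashed line marks equal levels. Most points lie above the line, and ENSBTAG00000022890 is the point far right at 22928 CPM in the hypothalamus.

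The rule removed genes that followed the hypothalamus closely, so the remaining relation is a description. In the 53 genes with reads in both tissues, r between the tissues over the 12 animals had a median of 0.20 and ran from -0.59 to 0.79. It was above 0.5 in 10 genes and below 0 in 18.

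Genes of the set that were well expressed in the hypothalamus often varied between animals there too. Of the 17 with a mean of 20 CPM or more in the hypothalamus, 7 had an SD of 0.9 or more (41.2%), against 1.46% of the 7078 genes at that level. The rule's condition on r used the same hypothalamus libraries, but not their spread. These 7 included 3 of the 5 genes of block 3, and 1 of block 1, ENSBTAG00000047502. Their r between the tissues ran from 0.091 to 0.788, where the rule had left out genes above 0.8 beforehand. Among the 7 genes that remained, high spread in both tissues did not always go with the same order of animals. How often it does so in general cannot be read from genes chosen in this way. ENSBTAG00000020923 of block 3 was highest in 2055 in the pituitary at 87.2 CPM and in 2059 in the hypothalamus at 906 CPM. Few animals can make such a spread. In the hypothalamus ENSBTAG00000002069 had 1.18 CPM in 2061, with the others from 17.9 to 77.9 CPM. ENSBTAG00000043564 had 111 CPM in 2054 and 121 CPM in 2059 there, with the others from 1045 to 2151 CPM. The hypothalamus spread was not tested with animals left out.

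**Figure D5:**
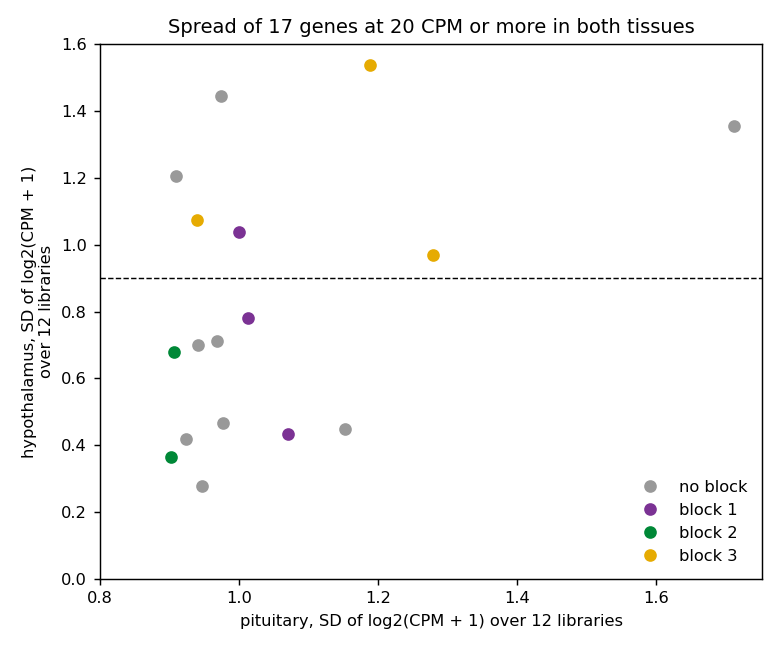
Points are the 17 genes with a mean of 20 CPM or more in both tissues, with the SD of log2(CPM + 1) over 12 libraries in the pituitary across (axis from 0.8, since the rule starts at 0.9) and in the hypothalamus up. The dashed line marks an SD of 0.9, and 7 genes lie above it, 3 of them in block 3.

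Correlation within the blocks was also read in other tissues, as a description over 12 libraries with no test and with few genes. Among genes with a mean of 20 CPM or more in the hypothalamus, the 3 of block 1 had a median r of 0.27, the 3 of block 3 had 0.37 and the only pair of block 2 had -0.68, where all genes at that level had a median of 0.017. With the minimum at 10 CPM, the 7 genes of block 1 had 0.16, the 3 of block 2 had -0.36 and the 3 of block 3 had 0.37. With the minimum at 5 CPM, the 9 genes of block 1 had 0.11, the 4 of block 2 had -0.073 and the 4 of block 3 had 0.15, where all genes had 0.026. Blocks 1 and 3 thus lay above the median of all genes at each level and block 2 below it, and the values moved with the genes that entered. In the liver the 5 genes of block 1 at 20 RPKM or more had a median r of 0.0021, against 0.080 over all genes at that level. With the minimum at 5 RPKM, the 7 genes of block 1 had 0.036 and the only pair of block 2 had 0.70, where all genes had 0.098. In the ovaries the only pair of block 1 at 20 CPM or more had 0.46 on the left and -0.18 on the right, where all genes had 0.086 and 0.38. The animal numbers of the libraries are as labelled.

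Puberty left no called difference in the hypothalamus for the 40 genes of the set that could be tested there. By edgeR 0 passed at an adjusted p under 0.05, with a background of 0% over 13713 genes, and DESeq2 and limma voom also called 0. At an unadjusted p under 0.05, 3 of the 40 passed (7.50%) against 3.46% of all genes.

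A minority of the set reached a mean of 20 in liver or ovary, and so did a minority of all genes. RPKM are scaled to gene length, so 20 RPKM in the liver is not the same level as 20 CPM. In the liver 8 of the 55 genes had a mean of 20 RPKM or more, beside 2432 of all genes. Of these 8, 4 had an SD of 0.9 or more on the log2 scale, against 3.21% of liver genes at that level. A mean of 20 CPM or more was reached by 8 genes of the set in the left ovary and by 9 in the right one. Of all 24616 genes, 3377 and 3273 did so. The depths were only 0.186 to 0.272 M and 0.185 to 0.334 M gene reads. At those depths 25.5% of left and 39.2% of right ovary genes at that level reached an SD of 0.9, so spread in the ovary was not read for single genes. Values for the uterus were not used here.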

How the data were processed

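Total RNA was sequenced as paired ends on an Illumina HiSeq after TruSeq preparation, per the labels' protocols. The files the authors deposited for pituitary, hypothalamus and ovaries hold raw read counts, 1 row per gene. The deposited liver values are RPKM, judged from the values themselves. Genome build UMD 3.1 is named in the submitters' processing notes. The names of the deposited files give the counter as htseq-count. Not given in the sources used here are its version and strand setting, the annotation and the aligner, so overlapping, antisense or near-identical genes may share reads. Rows naming no gene stayed out of totals. In the pituitary 55.3% to 60.6% of reads lay in no gene and 6.50% to 8.47% were not uniquely aligned.

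CPM were computed on gene reads, with a pseudocount of 1 before log2. Tests used edgeR 4.0.16 (quasi-likelihood, TMM, filterByExpr, robust), two-sided, with Benjamini-Hochberg adjustment over all genes tested and a threshold of 0.05; adjusted p-values above 0.9999 print as 0.9999. Standard errors come from the F statistic. DESeq2 1.42.0, limma 3.58.1, other scalings, filters and thresholds, the library set as a term and leaving out animals were alternatives, and fits and grouping were tested on simulated data. Replicates are separate animals. No 2 pituitary libraries of a group were duplicates: the mean chi-square per gene was at least 10.2 over 30 pairs, where sampling noise gives 1.

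The animal block for pituitary against hypothalamus rests on the animal numbers in the labels. Across 5792 genes, deviations of an animal's 2 libraries correlated with a median r of 0.103, above 0.1 in 6 of 12 animals, against -0.0096 between animals. The own animal was the best match in 3 of 12.

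The genes, the rule and all settings were chosen with earlier results of these data known. Singly named genes are the most central gene of each block, the 2 of highest SD and the lowest p in each direction; others are marked as chosen after their values were seen or stand as their nearest genes, group partners or examples. Identifiers matched 0 rows of the RefSeq table, so gene lists and marker lists could not be used.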

Additional observations from a re-analysis of the deposited data

Results flagged for a closer look

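Within groups of 6 pituitary libraries, a value was taken to stand apart when its gap to the nearest other was a large part of the group's range by Dixon's criterion, taken on log2(CPM + 1) for genes and on the percentage itself for shares of reads. This picked 4 of 42 groups of values, where chance gives 2.1. The genes among the 4 had been singled out after their values were seen, so the 4 cannot be weighed against 2.1. Over every gene of the set the criterion picked 7 of 110, where chance gives 5.5. The genes were chosen for a high SD over these same libraries, and many of them vary together. The 7 can therefore not be weighed against 5.5 either. ENSBTAG00000000601 lay at 3.89 CPM in the post-pubertal animal 2061, with the nearest of its group at 85.2 CPM. ENSBTAG00000002069 lay at 4.17 CPM in the same animal, with the nearest at 90.6 CPM. ENSBTAG00000043564 lay at 26.1 CPM in the post-pubertal animal 2059, with the nearest at 132 CPM. The share of gene reads taken by ENSBTAG00000015274 was 35.2% in the post-pubertal animal 2057, with the nearest at 16.3%.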

How the results depend on the processing

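The size of the set followed its thresholds: 33 genes with an SD minimum of 1.0, 84 with a mean minimum of 10 CPM and 25 with a mean minimum of 40 CPM, in place of 55. Leaving out 1 library gave 48 to 65 genes, and 18 genes were selected in every such setting. CPM without reads of ENSBTAG00000015274, chosen after seeing the data, gave 64. The blocks held 18 genes with the tree divided at 0.4 and 17 with complete linkage, in place of 28, because both ask for closer likeness. Leaving out 1 library gave 22 to 30. Block 1 kept 6 of its 17 genes together with complete linkage, 12 at 0.4 and 12 without 2048 or 2049. Block 2 kept at most 2 of 6 genes together without animal 2047 and 4 under Spearman's rho, and block 3 none without 2047, 2055 or 2059, without 2054 and 2059 together, under Spearman's rho or with either stricter tree. Without 2047 and 2055 together, chosen after seeing the data, block 1 kept 15 genes together, block 2 kept 6 and block 3 none. Genes of the set called for puberty or library set numbered 0 in every setting run. At an unadjusted p under 0.05 there were 0 to 2 for puberty in the pituitary, 0 to 4 for puberty in the hypothalamus and 0 to 4 for the library set. Against the hypothalamus 51 genes were called with RLE factors, no filter or DESeq2. Without the replicate block, so with no pairing of animals, 49 of the 53 tested were called.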
